A study of Mus musculus with 6 samples.

Results

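The regions described here are stretches of promoter DNA at which tagged TEAD4 was enriched both over input DNA and over an empty-vector control in C2C12 myotubes, cells of a mouse myoblast line that fuse when serum is lowered. A window was a probe of a promoter array with its neighbours within 500 bp on the same array design, at least 3 probes in all, and its value was the mean log2 ratio of immunoprecipitated (IP) over input DNA. A window was taken when both TEAD4 samples stood at a log2 of 1 or more (2-fold over input) and each also stood at least 1 above the control, and overlapping windows were merged. The rule took 1118 of 428057 windows (0.261%), which merged into 428 regions of the 37162 stretches that the windows tile. These regions named 422 of the 16512 genes with a window (2.56%). All values of TEAD4 and of the control in these regions chose them, so they are given as a description, with no test.

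The TEAD4 cells were a population infected with a retrovirus for TEAD4 carrying Flag and HA tags, and the control cells were infected with the empty vector; both were selected and kept in puromycin. The tagged protein was made from the vector beside the cells' own TEAD proteins, so the antibody against Flag reports the added protein. Both kinds of cells spent 5 days in medium with 2% horse serum and were then fixed in 0.4% formaldehyde. There were 2 TEAD4 samples, called duplicates in the labels, and 1 control sample, each on 2 array designs (6 arrays), with IP DNA in Cy5 and its own input in Cy3 throughout. Whether the duplicates were separate cultures is not stated, so their spread may be technical, and the control has no spread of its own. Precipitated DNA gives no expression, so the cell type could not be checked against markers.

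TEAD proteins bind DNA through a TEA domain but activate transcription only with partners such as YAP, TAZ and the vestigial-like proteins. Their classical site is the M-CAT element, whose core reads CATTCC on one strand and GGAATG on the other. It is known from promoters of muscle genes, among them cardiac troponin T, and TEAD sites control YAP targets such as Ankrd1, Ccn1 and Ccn2. TEAD4 itself is induced as myoblasts differentiate.

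Promoter sequence was not used by the rule, and it is shown first as a property independent of the measured values. The arrays' own files carry no probe sequences, so promoters came from RefSeq (GRCm38.p6), 250 bases before to 50 bases after each start, and coordinates in this paragraph are of that build. The first set has a TEAD core (in capitals) within the 250 bases before the start. Shown are the 5 whose regions stood highest among those with a core there, and Ankrd1, one of the regions with most probes.

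Trip6 (chr5:137314242-137314491, minus strand): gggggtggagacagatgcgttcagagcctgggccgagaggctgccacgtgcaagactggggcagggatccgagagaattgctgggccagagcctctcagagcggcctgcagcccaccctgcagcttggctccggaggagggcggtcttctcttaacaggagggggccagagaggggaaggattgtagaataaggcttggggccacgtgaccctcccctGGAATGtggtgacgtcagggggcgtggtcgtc
Mrpl22 (chr11:58171414-58171663, plus strand): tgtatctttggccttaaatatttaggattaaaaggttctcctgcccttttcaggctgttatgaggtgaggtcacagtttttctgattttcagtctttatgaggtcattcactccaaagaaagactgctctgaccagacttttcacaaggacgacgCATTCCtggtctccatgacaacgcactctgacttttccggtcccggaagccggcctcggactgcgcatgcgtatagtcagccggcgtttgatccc
Creb3l2 (chr6:37442149-37442398, minus strand): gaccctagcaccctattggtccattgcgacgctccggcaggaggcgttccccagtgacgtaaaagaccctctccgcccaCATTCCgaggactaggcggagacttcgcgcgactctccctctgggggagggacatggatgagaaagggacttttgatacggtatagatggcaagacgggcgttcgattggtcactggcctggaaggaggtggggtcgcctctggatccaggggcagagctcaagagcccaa
Acta2 (chr19:34255374-34255623, minus strand): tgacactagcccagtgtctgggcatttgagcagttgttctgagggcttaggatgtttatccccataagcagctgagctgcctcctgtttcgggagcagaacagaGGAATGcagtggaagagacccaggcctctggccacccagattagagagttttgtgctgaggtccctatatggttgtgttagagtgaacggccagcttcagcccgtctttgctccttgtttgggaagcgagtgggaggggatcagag
Ogn (chr13:49607765-49608014, plus strand): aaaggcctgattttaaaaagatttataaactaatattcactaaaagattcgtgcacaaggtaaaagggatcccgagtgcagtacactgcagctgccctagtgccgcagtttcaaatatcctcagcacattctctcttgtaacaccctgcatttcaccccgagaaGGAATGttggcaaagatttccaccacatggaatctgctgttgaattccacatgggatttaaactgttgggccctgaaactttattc
Ankrd1 (chr19:36119845-36120094, minus strand): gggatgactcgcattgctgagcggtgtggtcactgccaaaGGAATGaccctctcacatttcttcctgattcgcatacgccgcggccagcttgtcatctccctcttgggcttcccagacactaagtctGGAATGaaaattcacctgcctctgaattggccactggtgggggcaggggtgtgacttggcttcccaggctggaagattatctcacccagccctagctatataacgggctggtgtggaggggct

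The second set, from 2 high regions whose covered promoter has the core on neither strand, is shown for contrast. The sequence of the regions outside these promoters was not read.

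Chrng (chr1:87205561-87205810, plus strand): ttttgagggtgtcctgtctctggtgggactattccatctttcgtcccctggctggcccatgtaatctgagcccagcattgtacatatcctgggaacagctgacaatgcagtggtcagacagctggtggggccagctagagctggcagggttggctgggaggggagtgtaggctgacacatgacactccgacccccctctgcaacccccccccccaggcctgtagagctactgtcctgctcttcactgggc
Fuz (chr7:44895829-44896078, plus strand): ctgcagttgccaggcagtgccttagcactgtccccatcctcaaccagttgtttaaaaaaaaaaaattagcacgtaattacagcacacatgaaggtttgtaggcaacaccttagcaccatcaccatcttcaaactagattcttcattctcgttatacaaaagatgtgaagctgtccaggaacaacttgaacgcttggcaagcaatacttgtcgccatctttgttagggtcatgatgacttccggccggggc

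Ankrd1 encodes an ankyrin repeat protein that binds titin in the sarcomere, and its promoter held a pair of GGAATG cores, beginning at -210 and -123 from the start. The highest window of its region was centred at -119 by the array's own annotation of starts, which need not match that of RefSeq. Acta2, smooth muscle actin, which early muscle cells also use, held the core at -146, and the highest window of its region was centred at -241. Ogn, a small proteoglycan of the matrix, held it at -86 with the highest window at -84. Trip6, a LIM protein of focal adhesions, held it at -32, with the highest window centred 156 bp inside the gene. In Creb3l2, a membrane-bound transcription factor of the endoplasmic reticulum, and in Mrpl22, a mitochondrial ribosomal protein, the core lay on the other strand as CATTCC, at -171 and -95. The highest windows of their regions were centred at -593 and -178, so a core in the promoter need not lie at the highest window.

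Of 87 genes with a probe of such a window between -250 and +50 of their annotated start, 60 had exactly 1 entry in the promoter table, 13 had several and 14 were not matched. The core GGAATG or its reverse complement CATTCC was present in 20 of the 60 (33.3%, 95% exact binomial interval 21.7 to 46.7%), against 1214 of 9478 promoters covered by any window (12.8%) and 3337 of 22862 in the whole table (14.6%). The next set was promoters covered only by windows 2-fold over input in both TEAD4 samples but not 2-fold above the control in both. These are called above input only, though TEAD4 could still exceed the control there. The core was in 30 of 152 of them (19.7%, interval 13.7 to 27.0%). Promoters enriched in the control and not in TEAD4 held it in 750 of 6631 (11.3%). The share was thus highest where TEAD4 exceeded both input and control, and the interval of the 60 overlaps that of the 152. Promoters are no replicates, so these shares are a description, and the intervals cover counting error only. The stricter 7-letter form GGAATGT or ACATTCC, which contains the shorter core, was in 7 of 60 (11.7%), against 7.89% of the 152, 2.41% of the control-enriched and 3.28% of all covered promoters. The 7 were Bet1l, Creb3l2, Mustn1, Ogn, Rin1, Rps26 and Trip6.

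The share of promoters with the TEAD core was also read at other folds. With 3-fold in place of 2-fold it was 6 of 14 (42.9%), and with 1.5-fold it was 51 of 235 (21.7%), the sets being nested. Both shares lay within the interval of the 2-fold share, 21.7 to 46.7%. Nested sets share promoters, so this does not decide whether the share changes with the fold. Without the control, that is, with 2-fold over input in both TEAD4 samples alone, it was 50 of 212 (23.6%). With the rule applied to TEAD4 sample 1 and the control alone it was 26 of 88 (29.5%), and with TEAD4 sample 2 and the control alone 40 of 171 (23.4%).

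**Figure D1:**
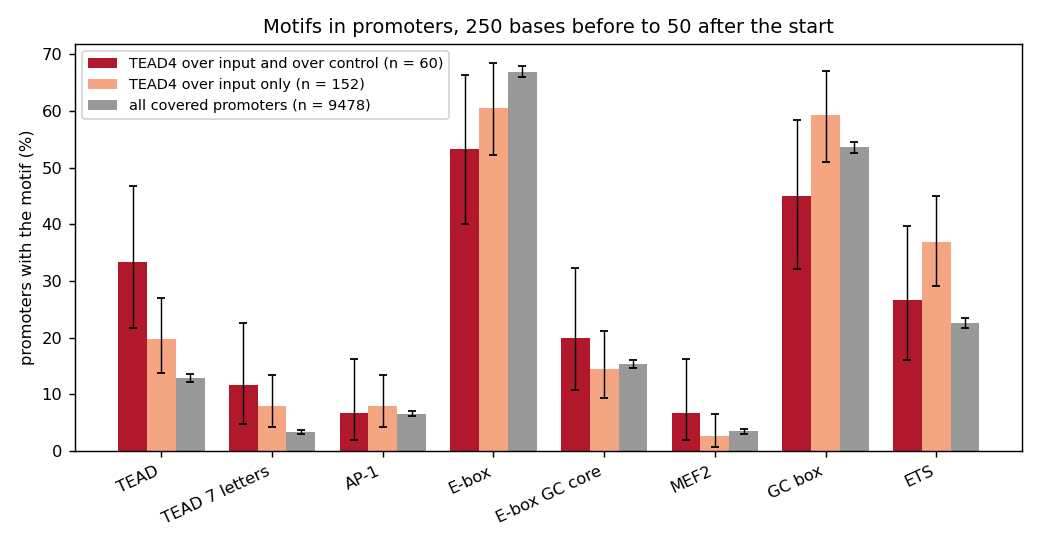
Share of promoters (percent, y axis) that hold each of 8 motifs on either strand. The sets are promoters covered by regions above input and control, by windows 2-fold above input but not 2-fold above the control, and by any window. Bars show the share and lines its 95% exact binomial interval. The TEAD core stands at 33.3%, 19.7% and 12.8% in the 3 sets, while the AP-1 motif stands at 6.67%, 7.89% and 6.58%.

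The other motifs searched differed less. AP-1, the site of Jun and Fos dimers, which often lie beside TEAD sites, was searched as TGANTCA and was in 4 of 60 promoters (6.67%), against 6.58% of all covered promoters. The E-box CANNTG, the general site of MyoD and its relatives, was in 53.3% against 66.9%, and its CAGCTG form, which those factors prefer and which is contained in the first, in 12 of 60 against 15.3%. The palindrome of MEF2 factors was searched in a loose form, with any base at its 4 middle positions. This form was in 4 of 60 (6.67%) against 3.44%. The hits in Eif2s1, Ier3 and Rin1 held a G or C at those positions, and that in Ttn held only A and T. A MEF2 site has A or T there, so these shares are not shares of MEF2 sites. Among these motifs, the intervals of the AP-1, CAGCTG and loose MEF2 shares all span the share of all covered promoters. That of CANNTG ends just below it at 66.3%. The GC box GGGCGG, the Sp1 site of broadly active promoters, was in 45.0% against 53.6%, and the ETS core CCGGAA in 26.7% against 22.5%. In the 152 promoters above input only, these last motifs were at 59.2% and 36.8%. The GC content of the 60 promoters had a median of 55.3%, against 57.7% in the 152, 61.3% in those enriched in the control and 58.3% in all covered promoters, and the median number of CpG dinucleotides was 16, 18, 21 and 17 in that order. The sets therefore differ in base composition too, and its part in the motif shares was not tested.

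The regions were short and the signal in them moderate. Their length ran from 281 to 2308 bp with a median of 894 bp, and they held 3 to 14 probes with a median of 5. A total of 157 regions (36.7%) were 1 window, 59 rested on 3 probes, and 75 held 8 or more. Averaged over all probes of a region, log2 IP/input was 0.81 to 2.54 with a median of 1.26 in TEAD4 sample 1 and 0.88 to 3.23 with a median of 1.36 in TEAD4 sample 2, against -1.44 to 1.16 with a median of -0.17 in the control. A region mean can fall under 1 because its outer probes belong to fewer windows. In 16 regions the mean of the TEAD4 samples reached 2, a 4-fold enrichment.

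The control stood below its own array median in most of these regions. It was under 0 in 283 regions (66.1%), between 0 and 1 in 143, and at 1 or more in 2, Rassf7 and Cryab. In 20 regions it was under -1, so that a large part of the difference from the control there is a low control value. The SD over all windows was 0.38 and 0.40 in TEAD4 samples 1 and 2, against 1.04 in the control, so the control was by far the more variable. Of all windows 0.659% were 2-fold over input in both TEAD4 samples, against 26.4% in the control, and 3.33% stood 2-fold above it in both. Of the 2822 windows 2-fold over input in TEAD4, 39.6% met the rule on the control as well, and in 32.3% the control was itself 2-fold over input. Merged, the windows over input gave 850 regions, of which 427 (50.2%) held a window that met both rules.

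In the control, member probes were also dim. The IP signal was 8.96 and 12.1 times the local background in TEAD4 samples 1 and 2 (medians over 2429 probes), against 1.70 in the control, and over all probes these medians were 4.11 and 5.01, against 1.93. The input signal of the member probes was close to that of all probes, at 3.42 and 3.47 in the TEAD4 samples, against 6.33 in the control, and 3.35 and 3.34, against 6.45, over all probes. In the control 103 member probes (4.24%, against 4.96% of all) were not well above background, in 92 regions, and no member probe was saturated. Feature extraction used an extended dynamic range for the control arrays alone, and each sample was scanned on a day of its own, so scan day, scanner setting and group cannot be told apart.

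**Figure D2:**
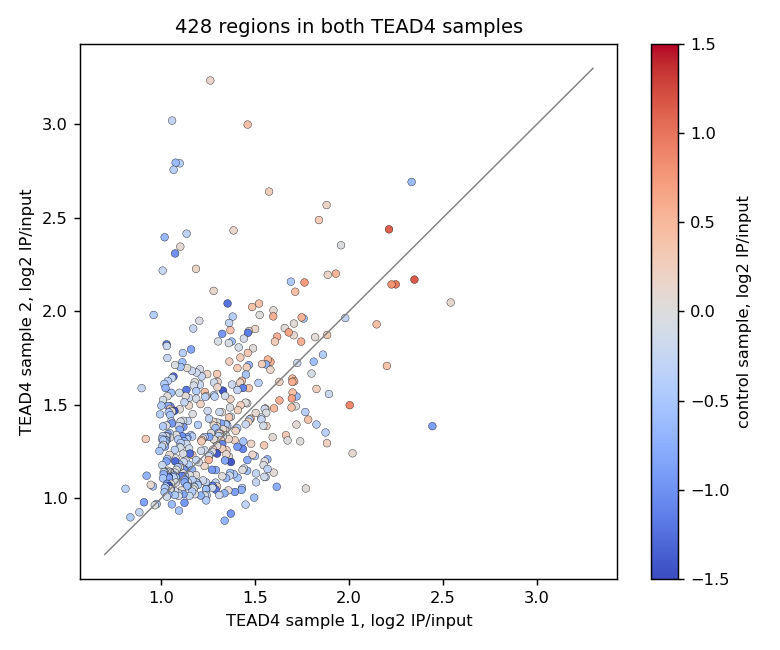
TEAD4 sample 1 (x axis) and TEAD4 sample 2 (y axis), log2 IP/input averaged over the probes of each of the 428 regions, with the control sample as colour and a line where both samples are equal. Most points lie between 1 and 2 on both axes, sample 2 is the higher in 268 regions, and few points are red, since the control reached 1 in 2 regions.

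The TEAD4 samples differed from each other far less than from the control. Their SD in a region had a median of 0.14, and pooled over regions it was 0.28, against 0.26 over all windows. The mean of TEAD4 minus control had a median of 1.52 and ran from 0.73 to 3.14, and it exceeded the gap between the TEAD4 samples in all 428 regions, which the rule makes likely. Sample 2 was the higher in 268 regions (62.6%). The samples lay over 1 apart in 16 regions, and 15 of these were higher in sample 2; Khdrbs1, at 2.44 and 1.39 in TEAD4 samples 1 and 2, against -0.88 in the control, was the other. Of the 16, 11 were a lone window or 3 probes. Across regions Pearson's r between the TEAD4 samples was 0.38 and between the TEAD4 mean and the control 0.41 (n = 428 regions, which share arrays and were cut at the same threshold, so r is a description).

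Enrichment over input can also be read in the TEAD4 sample that took no part in the choice, although the duplicates may be technical. This comparison was added after seeing the data. When 653 regions were chosen on TEAD4 sample 1 and the control alone, TEAD4 sample 2 had a median log2 IP/input of 1.12 in them (quartiles 0.80 and 1.45). It was above 0 in 642 (98.3%, against 49.0% of all windows) and 2-fold over input in 403 (61.7%, against 2.22% of all windows). When 1434 regions were chosen on TEAD4 sample 2 and the control alone, TEAD4 sample 1 had a median of 0.67 (quartiles 0.31 and 1.02), was above 0 in 1293 (90.2%, against 48.9%) and was 2-fold over input in 379 (26.4%, against 1.08%). Sample 1 thus found fewer regions, and a larger share of those it found was also high in the other sample. Regions were averaged over all their probes while all windows were counted singly, so the shares set side by side are of unlike units. IP DNA always carried Cy5, so any effect of the dyes that both samples share is in these shares as well.

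**Figure D3:**
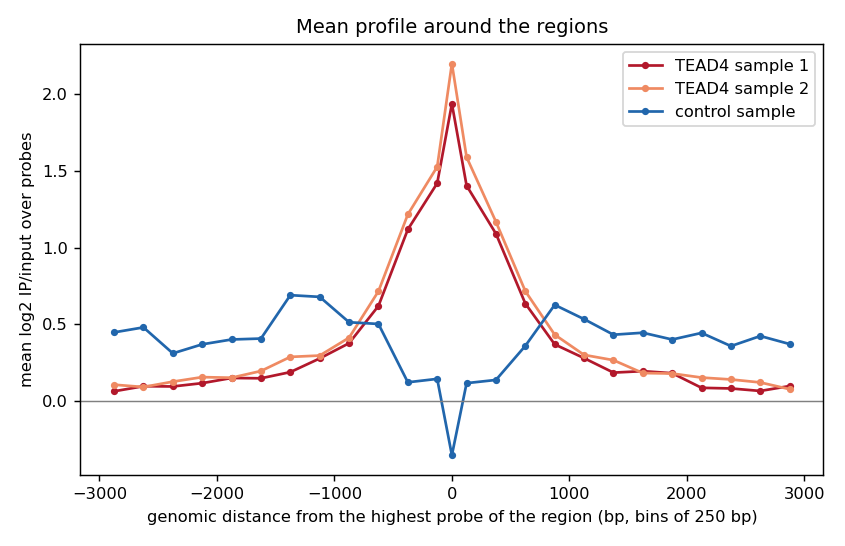
Mean log2 IP/input over probes (y axis) by distance from the highest probe of each of the 428 regions (x axis, bins of 250 bp), for TEAD4 samples 1 and 2 and the control. Both TEAD4 lines fall from 1.94 and 2.20 at the highest probe to about the level of all windows by 2 to 3 kb, while the control dips to -0.35 at the same probe.

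The choice of the highest probe and of the regions fixes in part the profile around that probe, which is given as a description. At the highest probe, which is chosen for its height, the mean over 428 probes was 1.94 and 2.20 in TEAD4 samples 1 and 2, against -0.35 in the control. At probes 375 bp away, toward lower coordinates, it was 1.12 and 1.22, against 0.12, and at 625 bp 0.62 and 0.72, against 0.50. At 1125 bp it was 0.28 and 0.30, against 0.68, and at 2875 bp 0.07 and 0.11, against 0.45. The side of higher coordinates differed little, with 0.64 and 0.72, against 0.36, at 625 bp. Within 500 bp of the highest probe the control was thus lower than in the flanks, where it lay between 0.31 and 0.69 from 625 bp outward, and the rule on the control selects for such a dip. In the control the SD over probes was 1.16 to 1.74, so single flanking probes ranged widely.

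The regions lay less often at the start itself than enrichment over input alone. The highest window of a region was within 500 bp of the nearest annotated start in 80 of 428 regions (18.7%), against 173 of the 423 regions that were above input in both TEAD4 samples but held no member window (40.9%). Of all windows 20.9% lay that close, and of windows 2-fold over input in the control 42.3%. From over 500 to 1000 bp the shares were 21.7% of the regions, 25.3% of the regions above input only and 16.2% of all windows. From over 1000 to 2000 bp they were 27.6%, 16.5% and 26%, and from over 2000 to 5000 bp 28.3%, 14.9% and 31.3%. The median distance was 1331.5 bp, against 609 bp for regions above input only and 1466 bp for all windows. The rule on the control takes part in this split, since the control itself was enriched near starts, and with scaled or quantile-normalized arrays the share of the regions stood above that of all windows. Upstream and downstream were even, with 217 regions (50.7%) upstream of the nearest start.

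**Figure D4:**
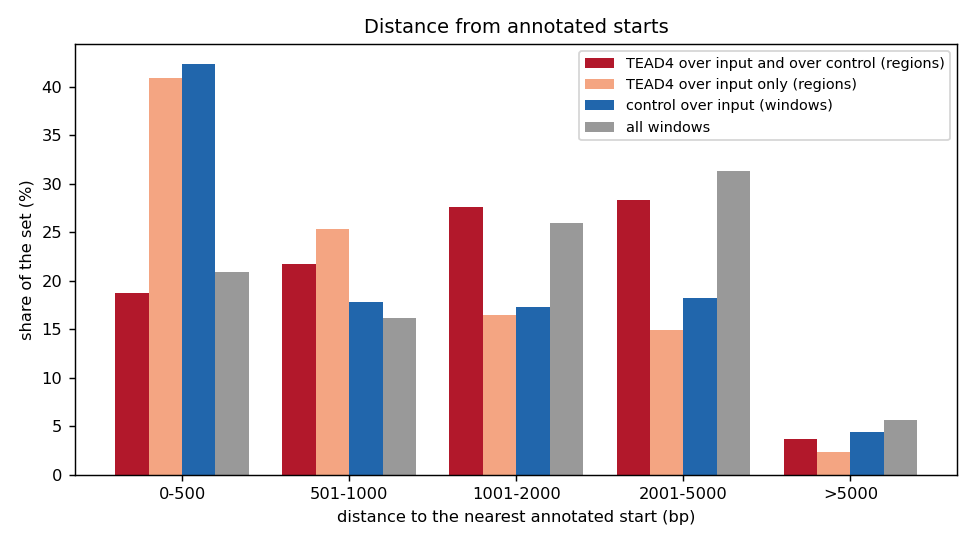
Share of each set (percent, y axis) by distance of the highest window from the nearest annotated start (bp, x axis), for the regions above input and control, regions above input only, windows 2-fold over input in the control, and all windows (each window by its middle probe). In the bin nearest the start the shares are 18.7%, 40.9%, 42.3% and 20.9%.

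By the arrays' own annotation 205 regions (47.9%) peaked inside a gene, 183 (42.8%) in a promoter, 22 (5.14%) in a promoter shared by divergent genes and 2 downstream. For 16 regions no gene is annotated. Of all windows 45.2% were inside, 46.8% in promoters and 3.26% in divergent promoters. The X chromosome held 2 regions (0.467%) but 3.72% of all windows, and chromosome 5 held 37 (8.64%) against 5.62% of windows. Regions above input only gave 0.473% on the X chromosome, close to the same share, so the difference from all windows was shared with enrichment over input.

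The highest regions belonged to genes of varied function. Their coordinates are those of the array files, with a genome build not given in the sources used here. Capn2, the catalytic subunit of calpain 2, a protease that cuts cytoskeletal proteins, led at 2.33 and 2.69 in TEAD4 samples 1 and 2, against -0.63 in the control, on chromosome 1 from 184351798 to 184352439, with its highest window 2376 bp inside the gene. A further region of Capn2 peaked at -2510 bp from the start, with 1.57 and 1.74, against 0.49. Each rests on 4 probes.

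Cryab, a chaperone found at the Z-disc, had 2.21 and 2.44 in TEAD4 samples 1 and 2, against 1.13 in the control, on chromosome 9 from 50504817 to 50505627, 10 bp from the nearest start. Rassf7, a Ras-association domain protein, had 2.35 and 2.17, against 1.16, on chromosome 7 from 141067643 to 141068452. These regions passed although the control was itself above 2-fold, and the excess over it was 1.20 and 1.10. S100a11, a calcium-binding protein of migrating and growing cells, had 2.54 and 2.05, against 0.11, on chromosome 3 from 93607638 to 93608435, inside the gene. A neighbouring S100a11 region nearer the start had 1.59 and 1.33, against 0.08.

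The region of Slc12a9 and Trip6 was among the broadest of the highest 15, with 9 probes on chromosome 5 from 137543315 to 137544759. It had 2.23 and 2.14 in TEAD4 samples 1 and 2, against 0.79 in the control, and its highest window, 156 bp inside Trip6, had 2.85 and 2.60, against 0.58. Chrng, the embryonic gamma subunit of the muscle acetylcholine receptor, had 10 probes on chromosome 1 from 89035382 to 89036994, at 1.89 and 2.20, against 0.16. Its highest window was centred at -167 bp from the start, where the promoter printed above has no TEAD core but holds CAGCTG. Both samples of these regions lay apart from the control without overlap, as the rule requires.

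Of the rest of the highest 15, Iffo2 had 2.25 and 2.14 in TEAD4 samples 1 and 2, against 0.97 in the control, Lzic 1.84 and 2.49, against 0.28, and Ifit2, an interferon-induced gene, 1.96 and 2.35, against -0.03. Cxcl5, a chemokine that draws neutrophils, had 1.88 and 2.57, against 0.17, at -4622 bp from its start. Prrc2a had 1.93 and 2.20, against 0.54, and Ankrd10 had 1.58 and 2.64, against 0.26. In these the samples differed by 1.07 or less. In 3 others sample 2 stood far above sample 1: Dennd1b had 1.46 and 3.0, against 0.42, Tmem163, a zinc transporter of vesicles, 1.06 and 3.02, against -0.26, and an unannotated region on the X chromosome 1.26 and 3.23, against 0.14. The last rests on 3 probes, of which 1 was not well above background in the control. Further down, Pnlip, pancreatic lipase, had 1.10 and 2.79, against -0.39, and Septin7, a cytoskeletal GTPase, 1.07 and 2.76, against -0.36, with the same order of the samples.

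**Figure D5:**
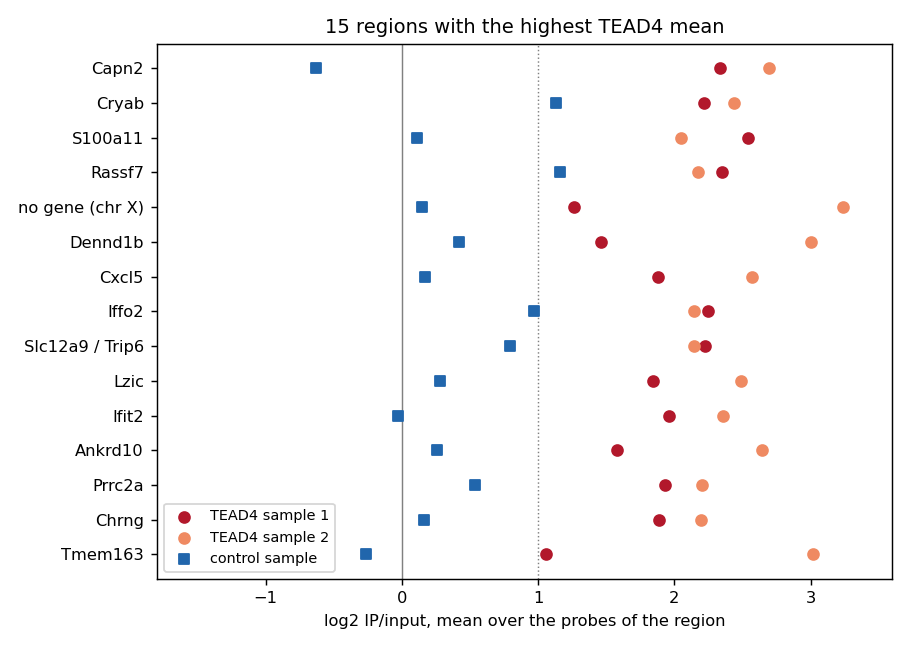
Log2 IP/input (x axis) in TEAD4 sample 1, TEAD4 sample 2 and the control for the 15 regions with the highest mean of the TEAD4 samples, averaged over the probes of each region; the dotted line marks 2-fold over input. All TEAD4 points lie right of the dotted line and of their control point, and in Tmem163, Dennd1b and the X chromosome region sample 2 lies far right of sample 1.

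In the regions with most probes, 11 to 14 each, both TEAD4 samples were above the control, as the rule requires. Map4k4, a kinase that feeds into the Hippo pathway above YAP, held 14 probes on chromosome 1 from 39846028 to 39848012 and had 1.73 and 1.72 in TEAD4 samples 1 and 2, against -0.19 in the control. Ankrd1 held 14 probes on chromosome 19 from 36184081 to 36186388, at 1.35 and 1.40, against -0.43. Ttn, the giant spring of the sarcomere, held 13 probes on chromosome 2 from 76781359 to 76783450, at 0.99 and 1.25, against -0.50. In Klhl31, a muscle Kelch protein, 11 probes had 1.27 and 1.35, against 0.05, and in Atp6v1g1, a subunit of the proton pump, 11 probes had 1.29 and 1.31, against -0.12. Tank, an adaptor of innate immune signalling, and Ube2h, a ubiquitin-conjugating enzyme, held 11 probes as well. Tank had 1.39 and 1.03, against -0.89, and Ube2h 1.02 and 1.03, against -0.51. The duplicates differed most in Tank, by 0.36, and by 0.26 or less in the other regions of 11 or more probes.

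Genes that respond to YAP and TEAD, the pathway of the factor itself, held the highest share of regions among 14 lists. A region was present in 9 of the 36 measured (25%), against 2.56% of all genes, and enrichment over input in 13 of them (36.1%), against 5.2% of all genes. The median of their highest windows was 0.86, against 0.40 over all genes. The lists were written with earlier results of these data known, so no test was made. Thbs1, a matrix glycoprotein, had 1.88 and 1.87 in TEAD4 samples 1 and 2, against 0.31 in the control, on chromosome 2 from 117801327 to 117803020. Ccn1, a secreted integrin ligand, had 1.41 and 1.81, against -0.10, on chromosome 3 from 145587911 to 145589682, and Gadd45a, a growth arrest and DNA damage protein, 1.46 and 1.89, against -1.14. Frmd6, an upstream Hippo component, had 1.12 and 1.41, against -0.11. Fstl1, a secreted glycoprotein, and Inhba, a subunit of activin, were lower, at 1.04 and 1.15, against 0.00, and at 1.01 and 1.11, against -0.52. Trip6 and Ankrd1, described above, and Tead1 completed the 9. Ccn2, named above as a YAP target, was not among them.

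Tead1, a close relative of the precipitated factor, had 1.15 and 1.27 in TEAD4 samples 1 and 2, against -0.15 in the control, over 8 probes on chromosome 7. The region lay 81099 bp from the annotated start of Tead1 but 1249 bp from the nearest start of any kind, so it is not at the main promoter by that annotation. Tead1 also counts in the list of myogenic regulators, with Myf6 and Hes1, where 3 of 33 genes had a region (9.09%, against 2.56% of all genes). Myf6, a myogenic factor of mature fibres, had 1.41 and 1.28, against -0.93, on 3 probes at -5259 bp from its start. Hes1, the Notch target that opposes differentiation, had 1.37 and 0.92, against -0.93, at -5004 bp from its start. All 3 lay away from the gene's own start.

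Of genes of the sarcomere 9 of 47 (19.1%) had a region, against 2.56% of all genes, and 13 (27.7%) were over input, against 5.2%. The median of their highest windows was 0.76, against 0.40 over all genes. Besides Cryab and Ttn they included Ankrd2, a stretch-responsive relative of Ankrd1, with 1.98 and 1.96 in TEAD4 samples 1 and 2, against -0.28 in the control, on chromosome 19 from 42089946 to 42091556. Tnni1, slow troponin I, had 1.01 and 2.22, against -0.23, so its duplicates were apart by 1.21. Cavin4, a caveolar protein of muscle, had 1.11 and 1.73, against -0.58, and Ankrd23, the third member of the Ankrd1 family, 1.06 and 1.64, against -0.26, at -24 bp from its start. Mylpf, a fast light chain, had 1.10 and 1.28, against -0.32, Myoz2, which ties calcineurin to the Z-disc, 1.10 and 1.30, against -0.35, and Tpm3, a tropomyosin, 1.12 and 1.20, against -0.20. Ankrd1, Ankrd2 and Ankrd23, which form a family of muscle ankyrin repeat proteins, therefore all had a region. Cardiac troponin T, named above for its M-CAT element, was not among the sarcomere genes with a region.

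Genes of the cytoskeleton and focal adhesions gave 11 of 56 (19.6%), against 2.56% of all genes. Their 21 genes over input (37.5%, against 5.2%) were the highest such share of the 14 lists, as was their median highest window of 0.91, against 0.40 over all genes. Ect2, a protein needed for cytokinesis, had 1.80 and 1.67 in TEAD4 samples 1 and 2, against -0.08 in the control. Cnn2, a calponin, had regions on both sides of its start, at 1.71 and 1.63, against 0.45, and at 1.54 and 1.72, against 0.30, and its relative Cnn3 had 1.41 and 1.47, against 0.23. The light chain genes Myl12a and Myl12b, which are neighbours, share a region at 1.37 and 1.90, against 0.39, and Myl12a had a further one at 1.27 and 1.15, against -0.95. Enah, an actin polymerase, had 1.22 and 1.65, against -0.27, Vim, the filament protein vimentin, 1.46 and 1.15, against -0.56, and Tpm4, another tropomyosin, 1.07 and 1.12, against -0.06. Capn2, Map4k4 and Trip6 made up the rest.

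Lists of synapse, fusion, stress and cell cycle genes had 1 or 2 genes with a region each. Their shares stood above that of all genes (2.56%) and below those of the sarcomere and cytoskeleton lists. Counts this small do not show a share above that of all genes. Of excitation-contraction, synapse and membrane genes 2 of 33 (6.06%) had a region and 7 were enriched in both TEAD4 samples whatever the control (21.2%, where all genes gave 5.2%). Both with a region are acetylcholine receptor subunits: Chrng, and Chrna1 with 1.46 and 1.51 in TEAD4 samples 1 and 2, against 0.03 in the control. Of fusion and adhesion genes 2 of 21 (9.52%) had a region and 4 were over input. Mymk, the membrane activator of myoblast fusion, shares a region upstream of both genes with Adamtsl2, at 1.31 and 1.46, against -0.17, on chromosome 2 from 26896993 to 26898889, and Cdh15, the cadherin of muscle precursors, had 1.49 and 1.23, against 0.15. Of the unfolded protein response list 2 of 40 (5.00%) had a region and 6 were over input. Those with a region are both bZIP factors of the same family: Creb3l2 with 1.61 and 1.84, against 0.29, and Creb3 with 1.05 and 1.45, against -0.50. The cell cycle list gave 1 of 31 (3.23%), Ccne1, cyclin E, with 1.36 and 1.32, against 0.16, at -5189 bp from its start.

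Lists of broadly active genes and of other tissues give a scale for these shares. Housekeeping and glycolysis genes gave 2 of 22 (9.09%, against 2.56% of all genes), with 6 genes over input (27.3%, against 5.2% of all genes). The members are Eno1, the enolase, with 1.47 and 1.71 in TEAD4 samples 1 and 2, against -0.67 in the control, and Tuba1b with 1.58 and 1.69, against 0.16. Ribosomal protein genes gave 3 of 76 (3.95%), close to all genes, with Rpl4, Rpl3 and Rps26. Olfactory receptor genes gave 1 of 817 (0.122%, against 2.56% of all genes), Olfr456, whose control was at -1.07. Liver, neuronal and haematopoietic genes gave 0 of 23, 0 of 25 and 0 of 26, against 2.56% of all genes. In lists this short, a count of 0 does not show a lower share than that of all genes. The median highest windows of these lists, in the same order, were 0.25, 0.45 and 0.31, against 0.40 over all genes.

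Outside the lists, some regions cover a gene's promoter that holds the core. Among them were those of Acta2, at 1.28 and 2.11 in TEAD4 samples 1 and 2, against 0.13 in the control, and Ogn, at 1.38 and 1.97, against -0.40. Ifrd1, a regulator with a role in muscle differentiation and regeneration, had 1.72 and 1.55, against -0.63, with the core at -146. Its highest window was centred at -704. Mustn1, a small nuclear protein of muscle and bone, had 1.22 and 1.30, against 0.31, and Rin1, an effector of Ras, 1.34 and 1.36, against 0.14. The region of Gemin5 and Mrpl22, a divergent pair, had 1.69 and 2.16, against -0.46. Fuz, a planar polarity protein whose promoter has no core, had 1.49 and 2.02, against 0.39. Regions with and without the core in the covered promoter thus overlapped in height.

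Several genes had more than 1 region. The 16 with a pair were Anxa1, Capn2, Cnn2, Fads3, Lgals3, Map7d1, Myl12a, Paics, Ppfibp1, S100a11, Slc12a9, Stard13, Tlcd2, Trappc3, Ttn and Zfp27. Anxa1, an annexin, had regions on both sides of its start, at 1.03 and 1.20 in TEAD4 samples 1 and 2, against -0.85 in the control, and at 0.81 and 1.05, against -0.34. Lgals3, a galectin, had 1.43 and 1.06, against -0.30, and 1.12 and 1.09, against -0.79. In Stard13, a START domain protein, the region at the start had 10 probes at 1.34 and 1.34, against -0.01, and the one at -3777 bp 3 probes at 1.60 and 1.97, against 0.57.

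Single windows lay close on either side of each threshold. Among windows just inside the limit over input, Mtss1 had 1.13 and 1.00 in TEAD4 samples 1 and 2, against -0.99 in the control, and Pakap 1.00 and 1.35, against -0.10. Windows just outside were those of Zfp763 with 1.00 and 1.06, against -0.80, Cald1, a caldesmon of actin filaments, with 1.31 and 1.00, against -0.14, and Abca8b with 1.13 and 1.00, against -0.58. At the limit over the control, Fads3 (1.02 and 1.39, against 0.02), Pnpla2 (1.03 and 1.55, against 0.03) and Wdr19 (1.86 and 1.91, against 0.86) were just inside. Windows of Tfip11 (2.16 and 1.37, against 0.37) and Rnf13 (1.38 and 1.49, against 0.38) were just outside. Cald1, Tfip11 and Rnf13 are members through other windows, so a window outside a limit does not place its gene outside.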

How the data were processed

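Per the file headers, intensity values came from Agilent Feature Extraction 9.5.3.1, in which the authors' processed signals were background-subtracted and dye-normalized. The deposited log10 ratios of the series matrix equal the log10 ratios that these files give (largest difference 0). In place of these ratios, the processed intensities gave log2 of IP over input, less the median of the array. Left out were control spots, 738 probes that have no position and 1773 that any array flags as non-uniform, leaving 471870. Symbols were updated through a RefSeq table (GRCm38.p6), in which 57 of 16840 had no match. Motifs were searched on both strands of promoters of genes with 1 entry; a promoter was covered when a probe of the window lay in it by the array's annotation. The members and lists were chosen with earlier results of these data known. The named regions were the 15 with the highest TEAD4 mean, the 5 with most probes (Tank and Ube2h, which tie with the last of them, were added), up to 4 of each list, the 5 with the highest control, the 5 whose TEAD4 samples lay farthest apart and windows beside each threshold; other genes named were picked after their values were seen. The rule for printed sequences asked for probe sequences; promoters stand in for them. Window steps were tested on simulated data. The number of arrays limits the precision. Python 3.11.15 and limma 3.58.1 in R 4.3.3 were used; limma gave the normexp, loess and quantile alternatives.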

Additional observations from a re-analysis of the deposited data

How the results depend on the processing

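The count of 428 regions depended on scale and threshold. It was 1592 at 1.5-fold and 64 at 3-fold, 153 with neighbours within 1000 bp, 267 with at least 5 probes, 1552 with each array scaled by its median absolute deviation, 3062 with quantile normalization and 850 without the control; without a TEAD4 replicate it was 653 to 1434. It stayed within 1.5 times with flagged probes kept, neighbours within 300 bp, the median of the probes, normexp, loess, a floored control and the series matrix values, from 418 to 607. A similar count was not the same regions: normexp gave 450 regions, which overlapped 294 of the 428 (68.7%), and loess gave 418, which overlapped 354 (82.7%). The share of promoters with the TEAD core was 18.5% with quantile normalization (121 of 653) and 11.7% with the motif of 7 letters; under the other settings it was 21.7 to 42.9%, and every one of these lay above the share of all covered promoters under the same setting. The share of regions within 500 bp of a start was 26% with neighbours within 300 bp, 24.0% with at least 5 probes, 24.2% with scaled arrays, 27.3% with quantile normalization and 30.9% without the control, against 22.9%, 25.3%, 20.9%, 20.9% and 20.9% of windows; it was 40.4% within 1000 bp, against 37.1%. Thus whether it was above or below that of all windows depended on the setting. Without a TEAD4 replicate it was 15.8 to 17.8%. The cause of these shifts was not tested. Among 46 named regions no sign changed, which the rule makes likely. TEAD4 minus control moved by at least the SD of the duplicates in 29 with normexp, 25 with loess and 22 with the median of the probes. It moved that far in 36 with scaled and 40 with quantile-normalized arrays, and in 1 with flagged probes kept. TEAD4 minus control was 1 or more in 44 of 46 as reported and in 45 with normexp (lowest 0.65, Rpl4). The TEAD4 mean was 1 or more in 46 as reported and in 42 with normexp (lowest 0.63, Rpl4). No paired analysis was possible because the control has 1 sample and no test was made. With 2 duplicates and 1 control, no region has a test of its own. The error of the control's value in a single region cannot be known from 1 sample, which limits any reading of single differences from it. The control's SD over windows, 1.04, is a spread between places and does not give that error.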
